A study of Homo sapiens with 3 samples.

Results

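Aminoacyl-tRNA synthetases join each amino acid to its transfer RNA, and so supply the ribosome with its charged substrates. Human cells use separate nuclear genes for the cytosolic enzymes (most symbols end in 1) and for the mitochondrial enzymes (symbols end in 2), and the products of GARS1 and KARS1 serve both compartments. When charged tRNA runs short, the kinase GCN2 phosphorylates the initiation factor eIF2, translation of the transcription factor ATF4 rises, and ATF4 binds C/EBP-ATF response elements at genes for amino acid synthesis, amino acid transport and many cytosolic synthetases.

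The synthetase family was chosen with earlier results of these data known. Its genes were picked by symbol and by the class protein_coding, with no use of their values. They were 36 of the 21726 genes in the count table, 20 of them cytosolic and 16 mitochondrial. Of these, 33 had at least 60 counts over all libraries and were tested. The mitochondrial genes MARS2, PARS2 and SARS2 fell short of that minimum, with 32, 42 and 19 counts.

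RNA sequencing covered 3 lines of PC3-Luc, human prostate adenocarcinoma cells that carry a luciferase gene from a pMSCV vector. The lines sh718 and sh720 express different short hairpins against CTHRC1, which encodes a secreted matrix glycoprotein, and shCtrl expresses a control hairpin. All lines were plated 24 hours before RNA extraction, and each is represented by 3 libraries. The labels do not say whether a line is a clone or a pool, nor whether its libraries came from separate cultures. The p-values therefore reflect the spread from library to library, and that spread may be technical.

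Levels are given in CPM, counts scaled to library size after TMM normalisation. Changes are on the log2 scale with their standard error (SE), and genes with an adjusted p under 0.05 are those called (edgeR's quasi-likelihood test, Benjamini-Hochberg adjustment over 9556 tested genes). Where the libraries of a called gene are said not to overlap between lines, this describes its values and adds no support to the call. The share of all tested genes without such overlap was not computed in any comparison. Each library held between 883663 and 1108960 counts, and mitochondrial genome transcripts took 12% to 16.4% of a library. CTHRC1 had 2.36, 2.02 and 1.06 CPM in the sh718 libraries and 18.5, 19.8 and 9.70 CPM in the sh720 libraries, against 99.1, 132 and 117 CPM in the shCtrl libraries. Of the epithelial markers KRT8, KRT18, EPCAM and CDH1, the summed level, most of it from KRT18, was 868 to 939 CPM in sh718, 1013 to 1117 CPM in sh720 and 843 to 925 CPM in shCtrl. EPCAM fell in sh718 (-1.39, SE 0.26, edgeR adjusted p 2.41e-05), KRT8 and KRT18 rose in sh720 (0.46 and 0.22), and CDH1 was too low to test. Leukocyte markers summed to at most 2.36 CPM and fibroblast markers to at most 6.16 CPM in any library. The endothelial marker PECAM1 stood at 46.6 to 51.4 CPM in sh718, 13.4 to 31.2 CPM in sh720 and 21.4 to 25.9 CPM in shCtrl, and its part in the results was not tested. The sh718 library 2 stood apart from the other sh718 libraries. The chi-square over degrees of freedom was 2.40 and 2.34 for its pairs with them, against 1.31 between those and 1.36 to 1.97 within the other lines. Without it, 6 of the 8 synthetase calls in sh718 against shCtrl and 10 of the 13 in sh718 against sh720 were made. Levels are relative to all counted RNA of a culture, so a change in the share of expressing cells and a change per cell cannot be told apart.

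The promoters of 8 synthetase genes held the core letters of the C/EBP-ATF response element, TGATGNAA, and they are shown because most of these genes differed between the hairpin lines. Windows of 300 bases, from 250 before to 50 after an annotated gene start, came from RefSeq on GRCh38.p14 and were searched on both strands. A window was listed for 30 of the 36 genes, and 8 of the 30 (26.7%) held the letters, against 4.46% of the 27305 genes in that table and 3.62% of its 35116 windows. Of the cytosolic genes that were listed as ATF4 targets, 7 of 10 with a window held them, against 0 of 6 other cytosolic genes and 1 of 14 mitochondrial genes. Each line below runs 5′ to 3′ along the gene's strand, ends at most 30 bases past the start, and has the matching letters in capitals.
AARS1: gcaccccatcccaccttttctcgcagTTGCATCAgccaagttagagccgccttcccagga
CARS1: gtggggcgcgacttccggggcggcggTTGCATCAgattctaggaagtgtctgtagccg
GARS1: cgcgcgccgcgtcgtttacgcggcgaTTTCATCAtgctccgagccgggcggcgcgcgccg
IARS1: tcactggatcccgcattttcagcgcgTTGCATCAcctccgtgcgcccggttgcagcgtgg
MARS1: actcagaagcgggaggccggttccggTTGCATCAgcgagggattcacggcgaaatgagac
NARS1: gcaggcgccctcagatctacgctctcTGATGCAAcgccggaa
TARS1: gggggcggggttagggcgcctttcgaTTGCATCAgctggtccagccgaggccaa
YARS2: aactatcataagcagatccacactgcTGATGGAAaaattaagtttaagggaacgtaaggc

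These stretches lie at chr16:70289660-70289719 (AARS1, minus strand), chr11:3057394-3057451 (CARS1, minus), chr7:30594819-30594878 (GARS1, plus) and chr9:92293677-92293736 (IARS1, minus). The others lie at chr12:57488038-57488097 (MARS1, plus), chr18:57621807-57621848 (NARS1, minus), chr5:33440941-33440994 (TARS1, plus) and chr12:32756061-32756120 (YARS2, minus). The match is on the gene's own strand in NARS1 and YARS2 and on the other strand in the remaining 6. With the start base counted as 0, the first matching letter lies at -187 in AARS1, -2 in CARS1, -33 in GARS1, -13 in IARS1, -4 in MARS1, 14 in NARS1, 2 in TARS1 and -197 in YARS2. A match of letters is a description of the sequence and not a measured site of binding.

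Most cytosolic synthetase genes stood at higher levels than most mitochondrial ones. On a per-length scale (counts per kilobase of merged exons, scaled to the same total in every library), GARS1 ranked first in shCtrl with 226 ± 3.27 (SD, n = 3 libraries), followed by the bifunctional glutamate and proline enzyme gene EPRS1 with 175 ± 22.4. TARS1 at 155 ± 9.51, FARSA at 155 ± 31.3, KARS1 at 144 ± 9.70 and NARS1 at 144 ± 10.1 had overlapping ranges of mean ± SD. No test was made of their order. Among the 16 mitochondrial genes only IARS2, at 112 ± 7.45, ranked among the first 10 of the 36. The lowest mitochondrial level was that of SARS2, at 1.23 ± 0.686. HARS1, the cytosolic histidine enzyme gene, ranked 33 with 5.87 ± 1.74, and 54 counts over the shCtrl libraries. HARS1 shares 437 exon bases with the opposite gene HARS2 and 221 with WDR55, and SARS2 shares 57.0% of its exon bases with other genes. The sources used here state neither how reads in shared bases were counted nor whether reads cover whole transcripts, so the order is approximate.

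The summed level of the cytosolic genes was lowest in sh718 and highest in sh720. The 20 cytosolic genes summed to 3188, 3382 and 3225 CPM in the sh718 libraries and 4230, 4165 and 4130 CPM in the sh720 libraries, against 3656, 3613 and 3515 CPM in the shCtrl libraries. No library of one line overlapped those of another, but abundant genes weigh most in such sums. TARS1 averaged 195 CPM in sh718 against 374 CPM in shCtrl, and GARS1 642 CPM in sh720 against 395 CPM in shCtrl. Of the 20 cytosolic genes, 7 had changes above 0 in sh718 and 7 had changes below 0 in sh720. Their median changes were -0.10 in sh718 and 0.12 in sh720. The 16 mitochondrial genes summed to 490.2, 450.4 and 497 CPM in sh718 and 530.1, 526 and 545 CPM in sh720, against 499, 560.5 and 537 CPM in shCtrl, and here sh720 lay within the shCtrl range. No test was made of these sums, since both hairpin lines share the shCtrl libraries and the genes were chosen with earlier results known.

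**Figure D1:**
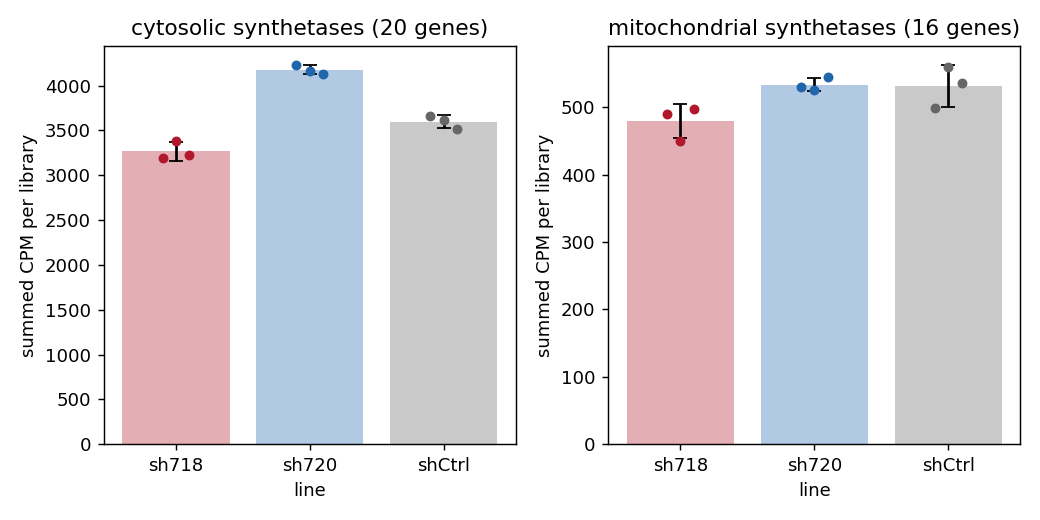
Summed CPM per library (vertical axis, from 0) of the 20 cytosolic and the 16 mitochondrial synthetase genes in sh718, sh720 and shCtrl. Bars are means of 3 libraries with SD and points are libraries; the cytosolic sums are 3188 to 3382 in sh718, 4130 to 4230 in sh720 and 3515 to 3656 in shCtrl.

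In sh718 against shCtrl, 8 of the 33 tested synthetase genes fell and none rose. They were TARS1, MARS1, QARS1, IARS1, CARS1 and KARS1 among the cytosolic genes and NARS2 and LARS2 among the mitochondrial ones. Over all tested genes 10.8% were called lower and 9.56% higher in this comparison, and the called share was 24.2% of the synthetases against 20.4% of all. DESeq2 called 4 lower and 0 higher, and at an unadjusted p under 0.05 edgeR had 9 lower and 2 higher. The median change of the synthetases was -0.09, against 0.00 for all tested genes.

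TARS1, the threonine enzyme gene, had 189, 181 and 215 CPM in sh718, against 395, 359 and 367 CPM in shCtrl. All sh718 libraries lay far below all shCtrl libraries, at a change of -0.94 (SE 0.09, edgeR adjusted p 3.53e-13). It lies at chr5:33440696-33469539 on GRCh38, and the median change of the 20 tested genes nearest to it was -0.38, with 7 of them called lower and 0 higher. They span chr5:16473038-36688334, a stretch poor in tested genes.

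MARS1, the methionine enzyme gene, had 89.6, 87.7 and 74.2 CPM in sh718, against 106, 173 and 136 CPM in shCtrl. The groups did not overlap although the shCtrl libraries varied widely (change -0.72, SE 0.14, edgeR adjusted p 3.97e-05). MARS1 shares 355 exon bases with DDIT3 and 519 with ARHGAP9 on the opposite strand, and no source used here states whether strand was used in counting. DDIT3, which encodes the stress factor CHOP and is mentioned here because of this overlap, changed by -0.15 (SE 0.21, edgeR adjusted p 0.674). It was, however, lower in sh718 than in sh720 by -0.60 (SE 0.19, edgeR adjusted p 0.0153). The 20 neighbours of MARS1 had a median of 0.12.

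IARS1, for isoleucine, had 93.1, 106 and 99.6 CPM in sh718, against 139.6, 127 and 134 CPM in shCtrl. CARS1, for cysteine, had 95.5, 106 and 98.6 CPM in sh718, against 124, 139 and 136 CPM in shCtrl. KARS1, for lysine, had 179, 185 and 219 CPM in sh718, against 238, 265 and 235 CPM in shCtrl. All 3 genes were separated from shCtrl in every library, by moderate changes: -0.42 for IARS1 (SE 0.12, edgeR adjusted p 0.0093), -0.41 for CARS1 (SE 0.12, adjusted p 0.0109) and -0.33 for KARS1 (SE 0.10, adjusted p 0.0115). DESeq2 called none of them (adjusted p 0.0684 for IARS1 and 0.0669 for CARS1). KARS1 also lost its call without sh718 library 1, sh718 library 2 or shCtrl library 2, with adjusted p of 0.0587 to 0.0785 over these and DESeq2 and 0.00489 to 0.0785 over all alternatives.

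The mitochondrial genes that fell were low in counts. NARS2, for asparagine, had 18.9, 16.1 and 14.8 CPM in sh718, against 24.8, 39.5 and 34.2 CPM in shCtrl (change -0.99, SE 0.27, edgeR adjusted p 0.00454). LARS2, for leucine, had 17.7, 9.07 and 14.8 CPM in sh718, against 30.4, 22.6 and 26.8 CPM in shCtrl (change -0.96, SE 0.29, edgeR adjusted p 0.011). Both were below shCtrl in every library. The LARS2 call was lost without sh718 library 2, without shCtrl library 1 and in DESeq2 (adjusted p 0.0531 to 0.105, and 0.00762 to 0.105 over all alternatives). LARS2 lies at chr3:45388506-45549421, where the 20 neighbours had a median of -0.55 with 6 called lower and 2 higher.

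In sh720 against shCtrl, 5 cytosolic synthetase genes rose and 1 fell, while no mitochondrial gene was called. GARS1, CARS1, AARS1, YARS1 and NARS1 rose, and QARS1 fell. The 5 that rose are among the 12 of 20 cytosolic genes listed as ATF4 targets, a list chosen with earlier results of these data known. Of the same 12 genes, 4 were called lower in sh718 against shCtrl (TARS1, CARS1, IARS1 and MARS1), where 10.8% of all tested genes were. Over all tested genes 3.43% were called higher and 3.42% lower, and the called share was 18.2% of the synthetases against 6.85% of all. DESeq2 called 5 synthetases higher and 0 lower, and at an unadjusted p under 0.05 edgeR had 8 higher and 3 lower. Of the mitochondrial genes 1 was higher and 1 lower at an unadjusted p under 0.05, and DESeq2 called 0.

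GARS1, the glycine enzyme gene and the most abundant of the family per length, had 629, 609 and 689 CPM in sh720, against 385, 396 and 405 CPM in shCtrl. The change was 0.70 (SE 0.08, edgeR adjusted p 4.01e-10), with every sh720 library above every shCtrl library. CARS1 had 211, 244 and 222 CPM in sh720, against the shCtrl values of 124 to 139 CPM given above, a change of 0.76 (SE 0.11, edgeR adjusted p 1.31e-07). CARS1 was the 1 synthetase gene called in opposite directions in the hairpin lines.

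AARS1, for alanine, had 240.4, 266 and 232 CPM in sh720, against 149.8, 173 and 193 CPM in shCtrl (change 0.51, SE 0.10, edgeR adjusted p 0.000269). YARS1, for tyrosine, had 164, 168 and 157 CPM in sh720, against 109, 118 and 123 CPM in shCtrl (change 0.48, SE 0.11, edgeR adjusted p 0.00284). NARS1, for asparagine, had 327, 314 and 318 CPM in sh720, against 243, 265 and 232 CPM in shCtrl (change 0.38, SE 0.09, edgeR adjusted p 0.0027). In each of these genes the sh720 libraries lay above all shCtrl libraries. The 20 neighbours of these 5 rising genes had medians between -0.06 and 0.19 in the same comparison.

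QARS1, for glutamine, was the 1 synthetase gene called lower in both hairpin lines. It had 90.7, 124 and 117 CPM in sh718 and 115, 114 and 116 CPM in sh720, against 163, 162 and 142 CPM in shCtrl. Both hairpin lines lay below all shCtrl libraries, and both comparisons share those libraries. QARS1 fell to a similar degree in both, with -0.48 (SE 0.12, edgeR adjusted p 0.00206) for sh718 and -0.43 (SE 0.12, adjusted p 0.0147) for sh720. QARS1 lies at chr3:49095932-49105135, and its 20 neighbours had medians of -0.49 in sh718 and -0.41 in sh720, close to its own changes, with 8 and 6 of them called lower and none higher. The sh720 call was lost without sh720 library 2, shCtrl library 1 or shCtrl library 2 and in DESeq2 (adjusted p 0.0524 to 0.121, and 0.00751 to 0.121 over all alternatives).

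**Figure D2:**
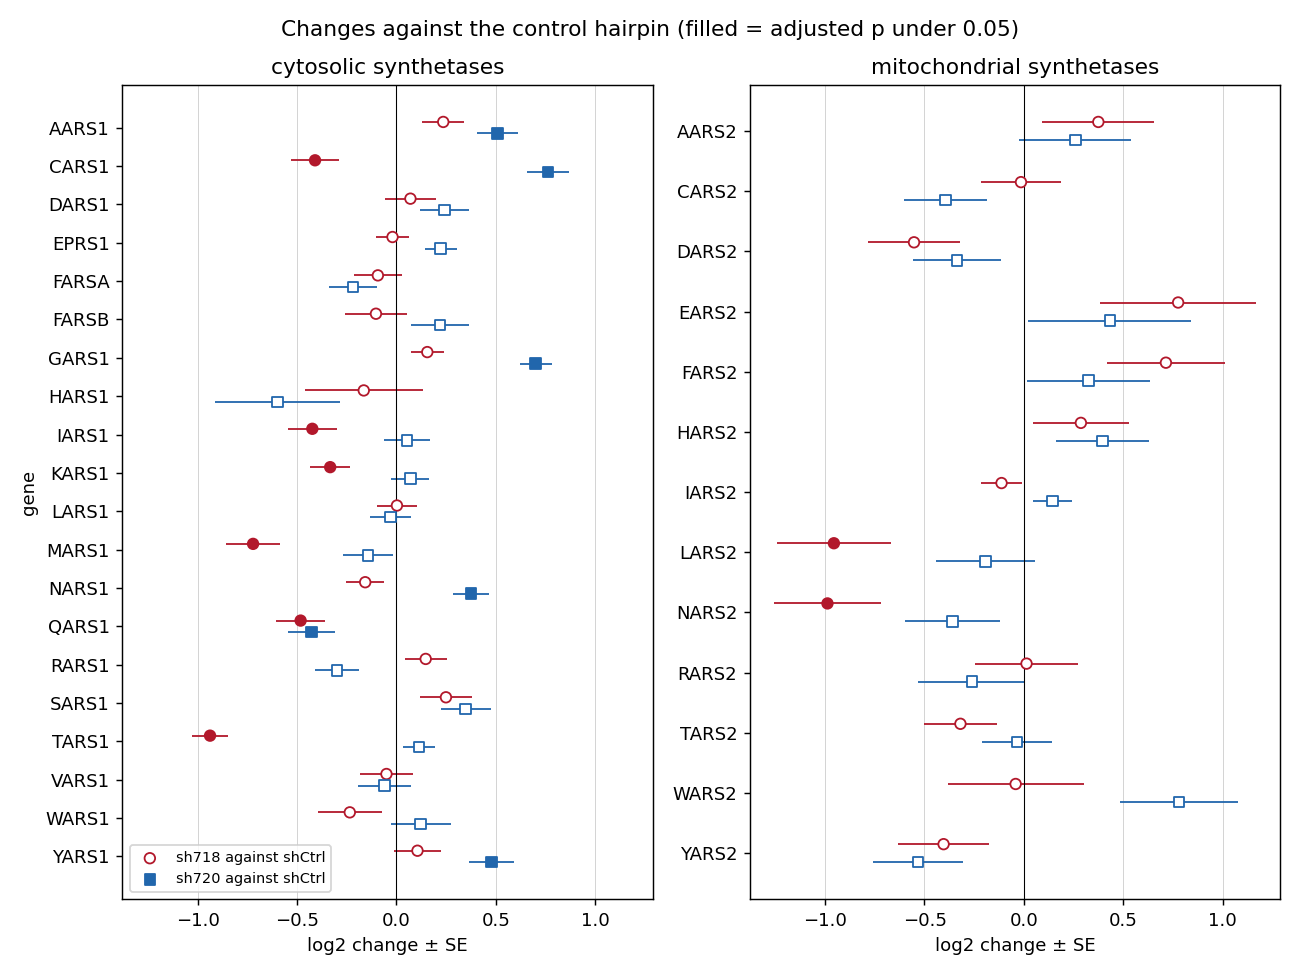
Log2 change against shCtrl (horizontal axis) with SE for each tested synthetase gene, in sh718 (red circles) and in sh720 (blue squares); filled symbols had an adjusted p under 0.05. The filled sh718 symbols all lie to the left of 0, from -0.99 for NARS2 to -0.33 for KARS1, and the filled sh720 symbols lie to the right except that of QARS1 at -0.43.

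The direct comparison of sh718 with sh720 tests whether the hairpin lines differ. The shCtrl libraries enter it through the shared scaling, filter and estimate of spread, and with only the 2 lines compared 12 of its 13 synthetase calls were made, LARS2 being lost. In it, 12 of the 33 synthetase genes were lower in sh718 and 1, RARS1, was higher. The called share was 39.4% of the synthetases against 25.3% of all tested genes, of which 13% were called lower and 12.3% higher. DESeq2 called 7 lower and 1 higher. The median difference was -0.24 over the synthetases and 0.00 over all tested genes.

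The widest separations were those of CARS1, at -1.17 (SE 0.11, edgeR adjusted p 2.34e-13), and TARS1, at -1.05 (SE 0.09, adjusted p 1.33e-15). TARS1 had 407, 402 and 403 CPM in sh720, close to its shCtrl level (0.11, SE 0.08, adjusted p 0.492), so its separation came with the lower sh718 level. CARS1 was separated by movements on both sides of shCtrl. The 20 neighbours of CARS1 at chr11:3000922-3057613 had a median of -0.41 in the direct comparison, with 7 called lower and 0 higher, and those of TARS1 had -0.30, with 6 lower and 0 higher.

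GARS1 had 411, 519 and 389 CPM in sh718, the highest in library 2, and all below its sh720 libraries (difference -0.54, SE 0.08, edgeR adjusted p 1.21e-07), and its change against shCtrl was 0.16 (SE 0.08, adjusted p 0.195). NARS1 had 207, 236 and 218 CPM in sh718, again below all sh720 libraries (difference -0.53, SE 0.09, edgeR adjusted p 4.04e-06). MARS1 had 132, 121 and 123 CPM in sh720 and IARS1 had 123, 153 and 141 CPM there, within or near their shCtrl ranges. Their differences were -0.58 (SE 0.14, edgeR adjusted p 0.000909) for MARS1 and -0.48 (SE 0.12, adjusted p 0.00215) for IARS1. DDIT3, which shares exon bases with MARS1, differed by -0.60 here, and the part of that overlap was not tested. KARS1 had 287, 243 and 243 CPM in sh720 and differed by -0.40 (SE 0.10, edgeR adjusted p 0.00133).

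YARS1 had 131, 121 and 127 CPM in sh718 and differed by -0.37 (SE 0.11, edgeR adjusted p 0.0102, or 0.0715 in DESeq2). AARS1 had 187, 196 and 226 CPM in sh718 (difference -0.27, SE 0.10, edgeR adjusted p 0.0374). EPRS1 had 389, 414 and 380.5 CPM in sh718, against 483, 476 and 442 CPM in sh720 (difference -0.24, SE 0.08, edgeR adjusted p 0.0201). The shCtrl libraries, at 450.4, 355 and 395 CPM, overlapped both. The AARS1 and EPRS1 libraries of the hairpin lines did not overlap, but these smaller differences depended on single libraries and settings. AARS1 lost its call without sh718 library 1 or 2 or sh720 library 1 or 2, with no filter on counts and in DESeq2 (edgeR or DESeq2 adjusted p 0.0566 to 0.178, and 0.0126 to 0.178 over all alternatives). EPRS1 lost its call without sh718 library 3 or sh720 library 1 or 2, in DESeq2, and after GC content and length trends were removed, where the difference was -0.17 (adjusted p 0.0648 to 0.121, and 0.0104 to 0.121 over all alternatives).

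Among mitochondrial genes WARS2, for tryptophan, had 13.0, 11.1 and 15.9 CPM in sh718, against 25.7, 19.8 and 25.2 CPM in sh720 (difference -0.82, SE 0.30, edgeR adjusted p 0.0347). Its shCtrl libraries spread over 16.9, 18.0 and 7.40 CPM. LARS2 had 18.5, 25 and 26.2 CPM in sh720 (difference -0.76, SE 0.29, edgeR adjusted p 0.0472). Neither call held in DESeq2 or with no filter on counts. WARS2 also lost its call without sh718 library 1 or 2 or sh720 library 1 or 3 and after GC content and length trends were removed (edgeR or DESeq2 adjusted p 0.0535 to 0.183, and 0.0314 to 0.183 over all alternatives). LARS2 also lost its call without sh718 library 2 or 3 or sh720 library 2 or 3, with a replicate block and with only the 2 lines compared (adjusted p 0.0528 to 0.26, and 0.0323 to 0.26 over all alternatives).

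RARS1, for arginine, ran the other way. It had 255, 179 and 221 CPM in sh718, against 162, 169 and 147 CPM in sh720 (difference 0.45, SE 0.11, edgeR adjusted p 0.00107). The shCtrl libraries had 202, 196 and 192 CPM, above all sh720 libraries and within the spread of sh718. The hairpin lines did not overlap each other, and neither line was called against shCtrl (0.15, adjusted p 0.35, in sh718 and -0.30, adjusted p 0.0922, in sh720).

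**Figure D3:**
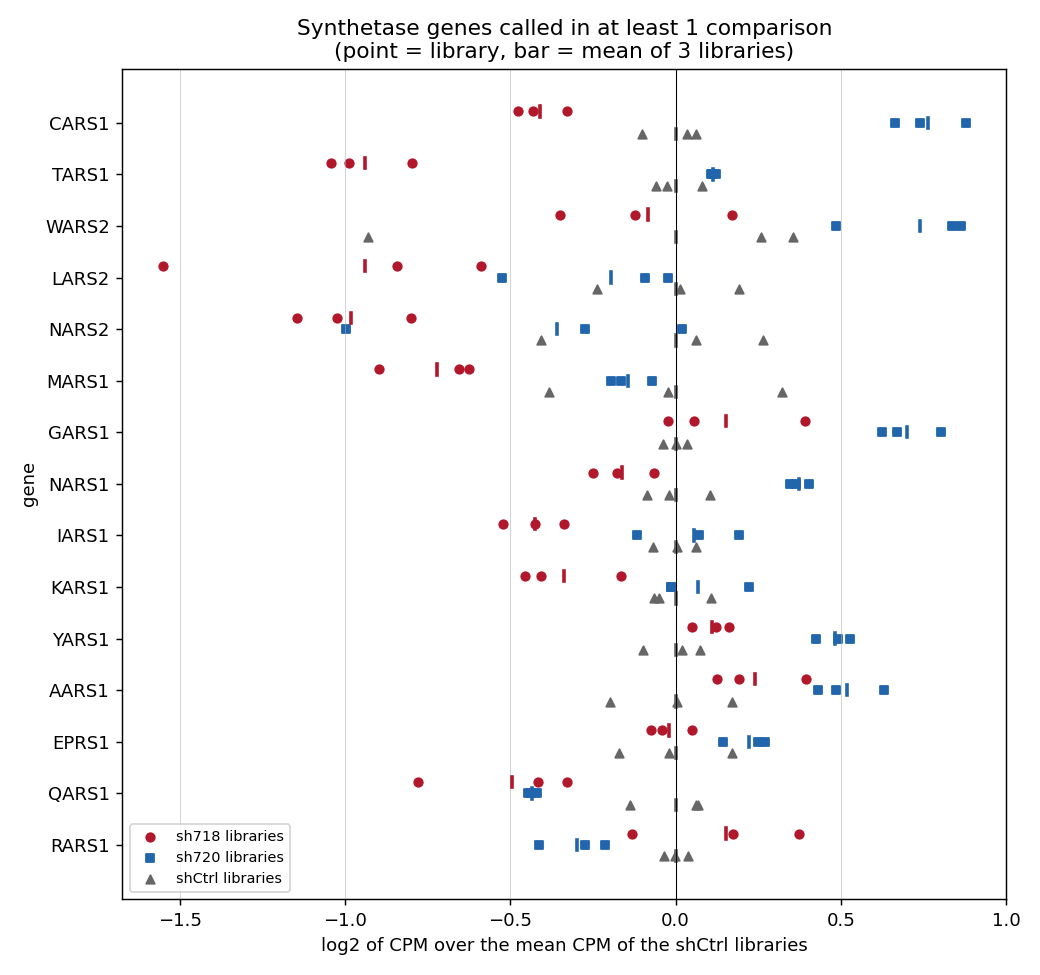
Library values of the 15 synthetase genes called in at least 1 comparison, as the log2 of CPM over the mean CPM of the shCtrl libraries (horizontal axis), with sh718, sh720 and shCtrl from top to bottom in each row. Points are libraries and short bars are means of 3; CARS1 has sh718 left and sh720 right of shCtrl, and QARS1 has both hairpin lines left of it.

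In the comparison of sh718 with sh720, where 13% of all tested genes were called lower and 12.3% higher, the synthetases were also counted by role. No test was made between the roles, and the ATF4 target list was chosen with earlier results of these data known. Of the 12 cytosolic genes listed as ATF4 targets, 9 were lower in sh718 than in sh720 and 0 higher (75.0% called), with a median difference of -0.42. SARS1, WARS1 and LARS1 were the 3 not called. DESeq2 called 6 of the 12 lower and 0 higher, and edgeR had 10 lower and 0 higher at an unadjusted p under 0.05. Of the other 8 cytosolic genes, KARS1 was lower and RARS1 higher, with a median of -0.02, and the called share of 25% was close to the 25.3% of all tested genes. Of the 13 mitochondrial genes tested, 2 were lower and 0 higher, with a median of -0.11; DESeq2 called 0, and at an unadjusted p under 0.05 edgeR had 4 lower and 0 higher.

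The 7 cytosolic genes whose promoter window held TGATGNAA were all among the 9, and the 1 mitochondrial holder, YARS2, was not called. YARS2 differed by 0.13 (SE 0.25, edgeR adjusted p 0.762). The median difference was -0.54 over the 8 holders and -0.11 over the 19 tested genes with a window that lacked the letters, of which 4 were called lower and 1 higher. The called share was 87.5% of the holders and 26.3% of those 19, against 25.3% of all tested genes. No test was made between them. All 7 cytosolic holders are on the ATF4 target list, and the genes without the letters include mitochondrial genes of low counts. The letters, the list, the compartment and the depth were therefore not separated. EPRS1 was called with no match in its window, and YARS1 had no window listed.

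Precision differed between the compartments. The median SE of the direct comparison was 0.12 over the cytosolic genes and 0.27 over the mitochondrial genes, whose median total was 187 counts, against 1214.5 counts for the cytosolic genes. Changes of a size called among the cytosolic genes would therefore often not be detectable in the mitochondrial genes at this depth.

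**Figure D4:**
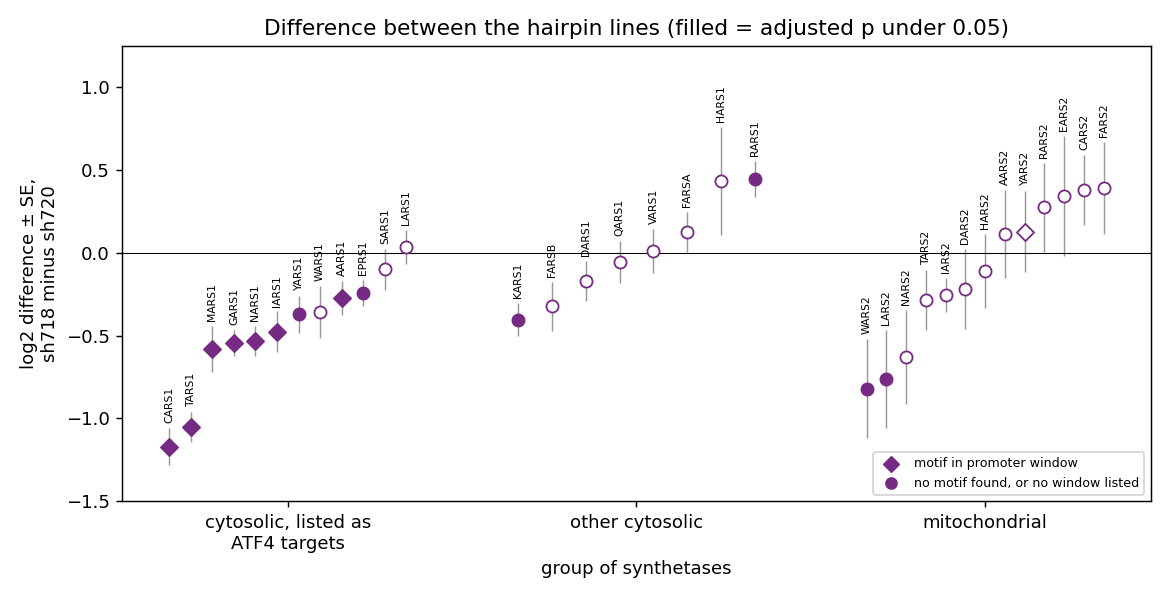
Log2 difference of sh718 minus sh720 with SE (vertical axis) for the tested genes in 3 groups; diamonds hold the motif TGATGNAA in a promoter window and filled symbols had an adjusted p under 0.05. The 7 filled diamonds run from -1.17 for CARS1 to -0.27 for AARS1, and the open diamond is YARS2 at 0.13.

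By structural class, 5 of 16 tested class I genes and 3 of 16 class II genes fell in sh718 and none rose, with EPRS1, which holds both classes, left out. The called shares were 31.2% of class I and 18.8% of class II, against 20.4% of all tested genes, and DESeq2 called 2 lower in each class and none higher. In sh720, 2 class I and 3 class II genes rose, and QARS1 of class I fell, a called share of 18.8% in each class against 6.85% of all tested genes. Of the 8 synthetases of the multisynthetase complex, a cytosolic assembly of enzymes on scaffold proteins, IARS1, KARS1, MARS1 and QARS1 fell in sh718, and QARS1 was the 1 called in sh720. These 4 of 8 stand beside 10.8% of all tested genes called lower in sh718, and DESeq2 called 2 of the complex lower in sh718 and 0 in sh720. The scaffold gene AIMP1 changed by 0.04 in sh718 (SE 0.14) and -0.01 in sh720 (SE 0.13). EEF1E1 changed by -0.18 (SE 0.14) and 0.14 (SE 0.13), and none of these changes was called. The scaffold gene AIMP2 was too low to test, with 4 counts in sh718, 4 in sh720 and 11 in shCtrl.

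Of the 18 tested synthetase genes called in no comparison, the 3 with the highest counts were LARS1, IARS2 and FARSA. LARS1, for leucine, had 268, 306 and 258 CPM in sh718 and 275, 263 and 275 CPM in sh720, against 358, 230.0 and 246 CPM in shCtrl. The changes were 0.00 in sh718 and -0.03 in sh720 (SE 0.10 for both), and the libraries of the 3 lines overlapped. IARS2, the mitochondrial isoleucine enzyme gene, changed by -0.11 (SE 0.10, edgeR adjusted p 0.485) in sh718 and by 0.14 (SE 0.10, adjusted p 0.477) in sh720. Its sh718 libraries lay below all sh720 libraries, by a difference of -0.26 that missed the threshold (SE 0.10, edgeR adjusted p 0.0535). FARSA, a subunit of the cytosolic phenylalanine enzyme, changed by -0.09 (SE 0.12, edgeR adjusted p 0.637) and -0.22 (SE 0.12, adjusted p 0.321).

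Neighbouring genes on the chromosome moved with some members and not with others. In sh718 the neighbour medians of the 8 synthetase genes that fell were -0.55 for LARS2, -0.49 for QARS1, -0.38 for TARS1, -0.20 for CARS1, -0.19 for NARS2, -0.01 for KARS1, 0.12 for IARS1 and 0.12 for MARS1. TARS1, LARS2, NARS2 and CARS1 fell further than their neighbours' medians, and QARS1 lay at its own. The part of the neighbourhood in these changes was not tested. The fall of KARS1, IARS1 and MARS1 in sh718, and the rise of AARS1, GARS1 and YARS1 in sh720, stood beside neighbour medians from -0.06 to 0.12. CARS1 and NARS1, which also rose in sh720, had neighbour medians of 0.18 and 0.19 there, in the direction of their own changes.

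**Figure D5:**
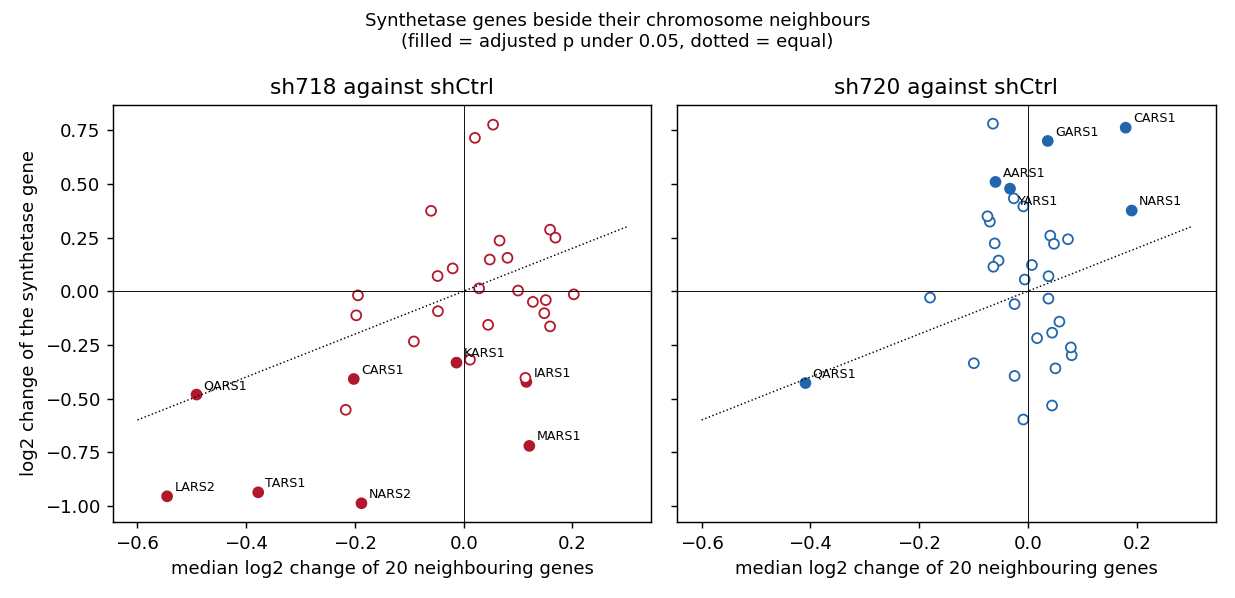
Log2 change of each tested synthetase gene (vertical axis) against the median log2 change of the 20 tested genes nearest to it on its chromosome (horizontal axis), in sh718 and in sh720 against shCtrl. Filled points had an adjusted p under 0.05; QARS1 lies on the dotted line of equal values in both panels, while MARS1 and IARS1 in sh718 lie well below it.

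Other genes of the amino acid response were also called in these comparisons. Of 28 tested regulators and ATF4 targets that are no synthetases, 16 rose and 0 fell in sh720 against shCtrl (57.1% called, against 6.85% of all tested genes), with a median of 0.45. DESeq2 called 12 higher and 0 lower. The 4 with the widest changes were TRIB3, a stress pseudokinase gene (1.40, SE 0.09), the cystine transporter gene SLC7A11 (1.28, SE 0.14), the secreted hormone gene STC2 (1.18, SE 0.08) and SESN2, which encodes a leucine sensor (0.95, SE 0.17). In sh718 against shCtrl 2 of the 28 rose, ATF5 by 0.46 and PPP1R15A by 0.40, and 7 fell, with a median of -0.12 and a called share of 32.1% against 20.4% of all tested genes. DESeq2 called 6 lower and 0 higher, so neither of those rises held there. The serine synthesis gene PSAT1 fell by 1.58 on the log2 scale, and the transcription factor genes CEBPB and CEBPG changed by -0.82 and -0.74. In the direct comparison 19 were lower in sh718 and 1, ATF5, higher, with a median of -0.55 and a called share of 71.4% against 25.3% of all tested genes. DESeq2 called 15 lower and 0 higher. ATF4 and the GCN2 gene EIF2AK4, named after their values were seen, had mRNA changes against shCtrl that were not called, but ATF4 was lower in sh718 than in sh720 by -0.38 (SE 0.10, edgeR adjusted p 0.00323). EIF2AK4 differed by 0.08 (SE 0.14, edgeR adjusted p 0.741). This list was chosen with earlier results of these data known, which already showed several of its members moving apart.

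Genes for other steps of tRNA handling were called at shares near or under those of all tested genes. XPOT, which encodes the exporter of tRNA from the nucleus, had 49.5, 46.4 and 51.9 CPM in sh718 and 78.1, 101 and 79.5 CPM in sh720, against 56.3, 59.8 and 71.2 CPM in shCtrl. It rose in sh720 (0.45, SE 0.15, edgeR adjusted p 0.046), a call that DESeq2 did not make, and was lower in sh718 than in sh720 by -0.80 (SE 0.16, adjusted p 3.98e-05). DTD1, which encodes a deacylase that removes D-amino acids from tRNA, fell in sh718 (-0.91, SE 0.14, edgeR adjusted p 2.21e-07), and TRNT1, for the enzyme that adds the CCA end, was lower in sh718 than in sh720 (-1.19, SE 0.30, adjusted p 0.00146). These were the 3 genes called in any comparison among 11 tested scaffolds and relatives. Their called share was 9.09% in sh718 and 9.09% in sh720, against 20.4% and 6.85% of all tested genes, and 27.3% in sh718 against sh720, where 25.3% of all were called. Of 26 tested tRNA modification enzyme genes, 0 were called in sh720 by edgeR and 0 by DESeq2, and at an unadjusted p under 0.05 edgeR had 0 higher and 1 lower. In sh718, 3 fell and 0 rose: NSUN2 (-0.67), and TRMT61A (-0.89) and TRMT6 (-0.39), which encode the subunits of a single methyltransferase. That share of 11.5% was close to the 10.8% of all tested genes called lower in sh718, and DESeq2 called 1 lower and 0 higher. The median change of the 26 in sh718 was -0.14, with 20 below 0 and 6 above. In sh718 against sh720 only NSUN2 was called (-0.49, SE 0.15, edgeR adjusted p 0.00977). This was a share of 3.85% against 25.3% of all tested genes, and DESeq2 called 0.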

How the data were processed

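RNA was sequenced from 3 PC3-Luc lines, with 3 numbered libraries per line. The authors deposited 1 table of raw counts per gene and library, per the file headers; their counter, annotation and strand setting were not stated. Trim Galore and GRCh38 are named in the submitters' processing notes.

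Counts were scaled by TMM and fitted with edgeR 4.0.16 (glmQLFit and glmQLFTest) in 1 model of the 9 libraries and 3 lines, for genes with at least 60 counts over all libraries, and p-values were Benjamini-Hochberg adjusted over the 9556 genes. The SE is the size of the log2 change over the square root of F. Scripts were checked on simulated data with 200 changed genes in sh718. There edgeR called 70% of the 2-fold changes and 34% of the 1.5-fold changes. A gene that was not called may therefore still have changed. The alternatives were RLE scaling, no filter, a minimum of 200 counts, a replicate block, only the 2 lines compared, DESeq2 1.42.0, each library left out, and removal of GC content and length trends, which was chosen after seeing the data. Same-line libraries differed by more than sampling noise (chi-square over degrees of freedom of 1.31 to 2.40), so none was a copy of another. These values cannot show whether libraries came from the same RNA or culture.

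Gene positions and merged exon lengths came from GENCODE v29, matched for 21258 of the 21726 IDs, and promoter windows from RefSeq on GRCh38.p14. Neighbours were the 10 nearest tested genes on each side. Library values are given for every synthetase gene called in any comparison, and up to 3 uncalled genes with the highest counts are named. Of other lists, at most 4 called genes per direction and comparison are named by size of change. The members and lists, ATF4 targets included, were chosen with earlier results of these data known.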

Additional observations from a re-analysis of the deposited data

Results flagged for a closer look

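The direct test between the hairpin lines found 13 synthetase genes whose levels in sh718 and sh720 differed, so their changes against shCtrl were not the same in the 2 lines. The log2 differences of sh718 minus sh720 were -1.17 for CARS1, -1.05 for TARS1, -0.82 for WARS2, -0.76 for LARS2, -0.58 for MARS1, -0.54 for GARS1 and -0.53 for NARS1. They were -0.48 for IARS1, -0.40 for KARS1, -0.37 for YARS1, -0.27 for AARS1, -0.24 for EPRS1 and 0.45 for RARS1. The 13 genes were picked by their calls in this same comparison, where 25.3% of all tested genes were called. Their sh718 and sh720 libraries did not overlap, which adds no support to those calls. The share of all tested genes without overlap was not computed. CTHRC1, the target of both hairpins, was itself lower in sh718 than in sh720 by -3.05 (SE 0.51, edgeR adjusted p 2.5e-06), with 2.36, 2.02 and 1.06 CPM in sh718 against 18.5, 19.8 and 9.70 CPM in sh720. The degree of knockdown and the hairpin sequence cannot be told apart with 1 line per hairpin.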

How the results depend on the processing

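No synthetase gene called in a comparison changed direction under any alternative. DESeq2 called 4 synthetase genes lower in sh718 against shCtrl, 0 lower in sh720 against shCtrl and 7 lower in sh718 against sh720, where edgeR called 8, 1 and 12. Over all genes DESeq2 called 1007, 295 and 1293, against 1947, 655 and 2419 with edgeR. Leaving out 1 library gave 6 to 8 genes lower in sh718, 5 to 6 higher and 0 to 1 lower in sh720, and 9 to 11 lower in sh718 than in sh720. The replicate block kept 8 of 8, 6 of 6 and 12 of 13 calls, losing LARS2, and called 1977, 680 and 2425 genes in all. Same-numbered libraries of different lines correlated at -0.01 to 0.02 in their deviations, so the numbers did not pair them. In sh718 against sh720, 10 of the 13 calls were made with no filter on counts (AARS1, WARS2 and LARS2 lost), 11 after GC content and length trends were removed (EPRS1 and WARS2 lost) and 12 with only the 2 lines compared (LARS2 lost). At a minimum of 200 counts LARS2 and WARS2 could not be tested. Depth limits the precision of the changes in low mitochondrial genes.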
